A study of Rattus norvegicus with 12 samples.

Results

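Liver RNA of 3 rats given the triazole fungicide triadimefon was compared with liver RNA of 3 control rats, over every probe set of the array that is not a control probe set. These are 6 of the 12 arrays in the study, whose other arrays came from rats given myclobutanil or propiconazole (3 rats each). The animals were adult male Sprague-Dawley rats, 10 weeks old, dosed by gavage every 24 hours for 72 hours. Triadimefon was given at 175 mg/kg/day, and myclobutanil and propiconazole at 300 mg/kg/day each, so the doses differ between compounds. The labels state neither what the control rats received by gavage nor the hour at which livers were taken. Each liver was hybridised to its own Affymetrix rat expression array, so replicates are separate animals and p-values measure the spread between animals.

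Triazole fungicides block fungal sterol 14-alpha-demethylase, a cytochrome P450, and bind other P450 enzymes of animals. In rodent liver many of them activate the nuclear receptors CAR and PXR, which switch on genes for drug oxidation, conjugation and transport. The liver also runs a circadian clock, in which CLOCK or NPAS2 pairs with BMAL1 to drive genes such as Per, Cry, Nr1d and Dbp, while the PER, CRY and REV-ERB proteins feed back to repress BMAL1, its activity or its gene. Liver RNA is a mix of cell types, and fewer cells of a type cannot be told apart here from less RNA per cell.

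Of 31042 probe sets that are no array controls, the 21729 left after the dimmest 30% had been set aside were tested, and 16078 of these name 1 gene each and cover 11842 genes. Values are a log-like score of unknown base, called log-like units below, so differences are given in those units and never as folds. Each control and triadimefon array had a median correlation with all other arrays of the study between 0.966 and 0.978, whereas myclobutanil replicate 1 stood apart at 0.927. Hepatocyte markers were high, with array means of 3.06 to 3.17 in controls and 3.07 to 3.13 in triadimefon rats. The 3' minus 5' signal of GAPDH, a sign of RNA integrity, was 0.37, 0.80 and 0.81 in the controls and 0.83, 0.51 and 0.42 in the triadimefon rats, so the groups overlapped. That of actin was 0.49, 0.89 and 0.67 in the controls and 1.06, 0.78 and 0.68 in the triadimefon rats, again with overlap. For actin, control replicate 1 was the lowest and triadimefon replicate 1 the highest of all 12 arrays. The spike-in bioB was highest in triadimefon replicate 1, at 0.68, against 0.23 to 0.44 on the other arrays.

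In the triadimefon livers, 6 of 25 targets of CAR and PXR rose, among them Por, Gsta3 and Ces2c, as did 4 of 47 nucleolar genes and the polyamine regulator Azin1. Of the circadian clock genes, Npas2 and Bmal1 fell while Dbp and Per3 rose. With limma and Benjamini-Hochberg adjustment over all tested probe sets, 167 probe sets passed an adjusted p of 0.05 (0.769% of those tested), 106 higher (0.488%) and 61 lower (0.281%). For all 167 the 3 triadimefon arrays lay wholly above or below the 3 control arrays, as was so for 28.3% of all tested probe sets. At an unadjusted p of 0.05, 2921 probe sets passed (13.4%). Taking the brightest probe set of each gene, 99 genes were called (0.836%), 66 higher (0.557%) and 33 lower (0.279%). At an unadjusted p of 0.05, 7.46% of genes were higher and 7.35% lower. These shares of all genes are the background for the list counts below. The median difference over all 11842 genes was -0.0155, and the median 95% half-width of a difference was 0.141. Of the called genes, 12 differed by at least 1 log-like unit and 52 by less than 0.5. With median centring in place of quantile normalization, 76 genes were called higher and 21 lower, and 74 of the 99 kept their call.

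The count of calls depended on single animals. Without triadimefon replicate 2 it was 6 probe sets, without control replicate 1 it was 10, without control replicate 3 it was 15, without triadimefon replicate 3 it was 51, without control replicate 2 it was 59 and without triadimefon replicate 1 it was 60. With myclobutanil replicate 1 left out of the fit, and normalization and filter kept, it was 615, among them all 167. Of the 99 called genes, 5 were called in each of the 6 fits that left out a control or triadimefon array (Coq10b, Por, Npas2, Cldn1 and Rprm), and 43 in none of them.

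**Figure D1:**
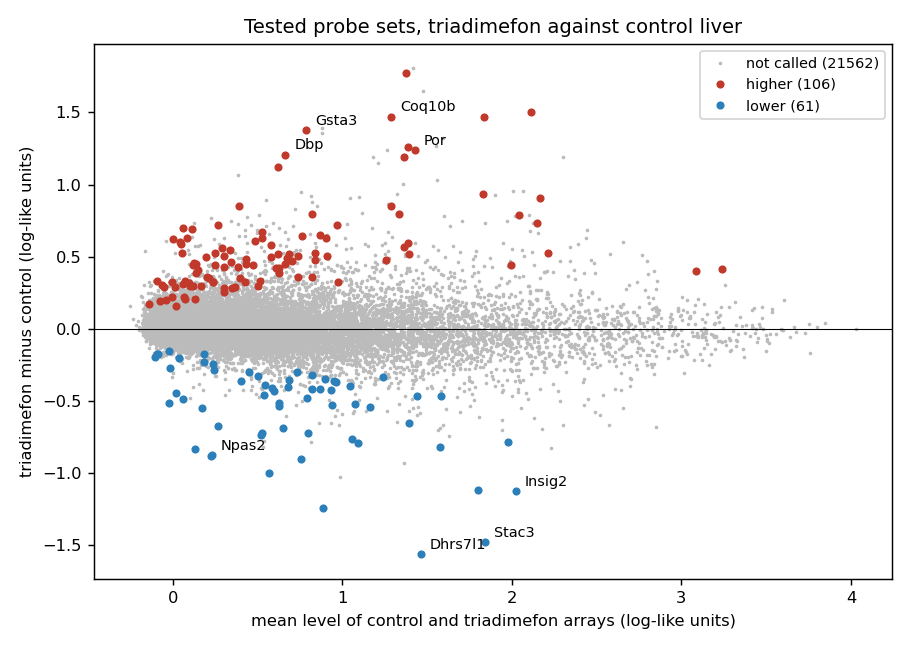
Each point is 1 of the 21729 tested probe sets, with its mean level over the 6 control and triadimefon arrays on the x axis and the triadimefon minus control difference on the y axis, both in log-like units. The 106 probe sets called higher (red) and the 61 called lower (blue) lie across the whole range of levels, and grey points past 1 log-like unit are differences that did not pass the test.

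The largest rise of all called genes was in Coq10b, a mitochondrial protein that binds coenzyme Q. Its level was 0.67, 0.40 and 0.57 in controls 1 to 3 and 2.05, 1.96 and 2.05 in triadimefon rats 1 to 3 (in this order throughout), a difference of 1.47 ± 0.17 (SE, adjusted p = 0.0071). The triadimefon values were almost equal and lay far above every control. Por, the reductase that passes electrons from NADPH to P450 enzymes, was at 1.11, 0.66 and 0.65 in the controls and 2.01, 2.24 and 1.90 in the triadimefon rats, a rise of 1.24 ± 0.13 (adjusted p = 0.0048). The groups did not overlap, although control 1 was above the other controls. A dimmer Por probe set differed by 0.71 and did not pass (adjusted p = 0.24).

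Gsta3, an alpha-class glutathione transferase, had levels of 0.18, 0.15 and -0.04 in the controls and 1.59, 1.78 and 1.05 in the triadimefon rats, a rise of 1.38 ± 0.18 (adjusted p = 0.010). Ces2c, a carboxylesterase of the endoplasmic reticulum, was at 0.94, 0.63 and 0.74 against 1.66, 2.21 and 2.01, a rise of 1.19 ± 0.18 (adjusted p = 0.012). In both, triadimefon rat 2 had the highest value and no triadimefon value fell within the control range. Aldh1a1, which oxidises retinaldehyde, rose by 0.93 ± 0.14 (adjusted p = 0.015), from 1.52, 1.19 and 1.37 to 2.38, 2.46 and 2.05. Ugt2b1, which adds glucuronic acid to drugs and steroids, rose by 0.91 ± 0.15 (adjusted p = 0.022), from 1.73, 1.32 and 2.09 to 2.54, 2.54 and 2.79. Its controls were the more scattered group, and control 3 came nearest to the triadimefon rats. Cyp3a23-3a1, the PXR-inducible P450 of rat liver, was bright in every rat, at 2.93, 3.10 and 3.07 in the controls and 3.48, 3.43 and 3.42 in the triadimefon rats, a rise of 0.41 ± 0.06 (adjusted p = 0.012). That call was lost with median centring, where the difference was 0.22 (adjusted p = 0.67). Gsta3, Ces2c, Ugt2b1, Aldh1a1 and Cyp3a23-3a1 have close paralogs in the rat, and the probe sets may also read these.

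Of 25 measured CAR and PXR targets, 6 rose and none fell, beside 0.557% and 0.279% of all genes. The median difference of the 25 was 0.37 against -0.0155 for all genes. The same 25 genes had a median of 0.30 with myclobutanil and 0.34 with propiconazole, at another dose and against the same controls. In 15 of the 25 genes every triadimefon value lay above every control value, and in none below, beside 13.3% and 17.2% of all genes. The other targets ranged down to -0.11. Alas1, the first enzyme of heme synthesis, had levels of 1.83, 1.78 and 1.17 in the controls and 2.17, 2.39 and 2.46 in the triadimefon rats, a difference of 0.75 ± 0.16 that did not pass (adjusted p = 0.065). Abcc3, an efflux pump for conjugates, was also short of the threshold, at 0.45 ± 0.11 (adjusted p = 0.092). With median centring 4 of the 25 were called, without control replicate 1 or triadimefon replicate 2 a single gene, and without control replicate 3 there were 2.

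Within the families of drug metabolism genes the calls were single members, counted over probe sets that name 1 gene. Probe sets annotated to several genes, which related genes can share, are outside these counts. Called rises among those included 1371076_at, by 1.5 ± 0.17 (adjusted p = 0.0071), whose genes were not resolved here. Of 50 P450 genes measured 1 rose (Cyp3a23-3a1) and none fell, with a median of -0.05. Of 21 glutathione transferases 1 rose (Gsta3), of 9 UDP-glucuronosyltransferases 1 (Ugt2b1), of 7 carboxylesterases and epoxide hydrolases 1 (Ces2c), and of 31 aldehyde dehydrogenases and aldo-keto reductases 1 (Aldh1a1). Beside these family counts, 0.557% of all genes were called higher and 0.279% lower. None of the 12 sulfotransferases passed, and Sult1c2 came nearest at -0.25 ± 0.11 (adjusted p = 0.32). Among the 5 measured targets of the dioxin receptor AhR, which share members with the drug metabolism lists, Nqo1 was nearest the threshold at 0.26 ± 0.10 (adjusted p = 0.30).

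**Figure D2:**
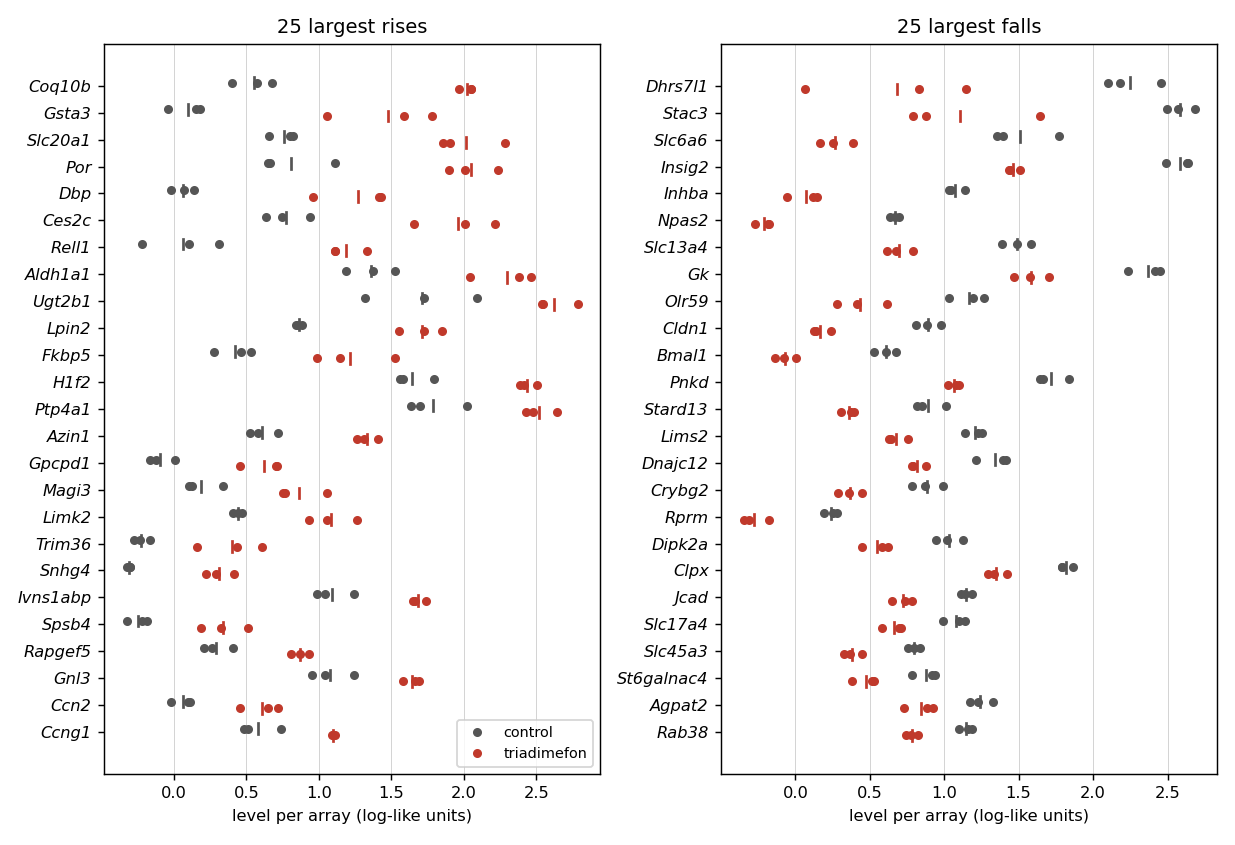
Levels on each control (grey) and triadimefon (red) array, in log-like units, for the 25 called genes with the largest rises (left) and the 25 with the largest falls (right), with vertical ticks at the group means. The groups do not overlap for any of the 50 genes, as the rule for naming them required, and Dhrs7l1, Stac3 and Gsta3 are the most scattered among the triadimefon rats.

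Other large rises fell outside drug metabolism. Slc20a1, a sodium-driven phosphate transporter, was at 0.65, 0.80 and 0.82 in the controls and 1.91, 2.28 and 1.86 in the triadimefon rats, a rise of 1.26 ± 0.22 (adjusted p = 0.024). Rell1, a relative of the TNF receptor family member RELT, rose by 1.12 ± 0.19 (adjusted p = 0.020), from 0.31, 0.10 and -0.22 to 1.33, 1.11 and 1.11. Both rises were lost in each of the 6 fits without 1 of the control or triadimefon arrays. Lpin2, a phosphatidate phosphatase that makes diacylglycerol for fat synthesis, was nearly constant in the controls at 0.84, 0.88 and 0.86 and reached 1.73, 1.85 and 1.55 in the triadimefon rats, a rise of 0.85 ± 0.13 (adjusted p = 0.012). A dimmer probe set of Lpin2 showed a difference of 0.04 (adjusted p = 0.83). Fkbp5, a co-chaperone that holds back the glucocorticoid receptor and is itself a glucocorticoid target, was at 0.27, 0.46 and 0.53 against 1.52, 0.99 and 1.14, a rise of 0.79 ± 0.13 (adjusted p = 0.021). Its other probe set was called as well, at 0.61 (adjusted p = 0.030), but the brightest lost its call in each of those 6 fits. H1f2, a linker histone, rose by 0.79 ± 0.12 (adjusted p = 0.016), from 1.58, 1.80 and 1.56 to 2.39, 2.41 and 2.50, and was the called member among 12 histone genes. Lpin2 and H1f2 each kept their call in 1 of the 6 fits.

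Among the remaining large rises, Ptp4a1, a tyrosine phosphatase linked to liver regeneration, rose by 0.73 ± 0.12, from 1.70, 1.64 and 2.02 to 2.64, 2.48 and 2.43. Limk2, a kinase that acts on cofilin and so on actin, rose by 0.65 ± 0.10, from 0.47, 0.44 and 0.41 to 0.93, 1.26 and 1.06. Rapgef5, an exchange factor for the small GTPase Rap, rose by 0.58 ± 0.09. Trim36 and Spsb4, which take part in ubiquitin ligases, rose by 0.63 and 0.59, Ivns1abp by 0.59, and Gpcpd1, which splits glycerophosphocholine, by 0.72. Magi3 (a junctional scaffold) rose by 0.67 on its brightest probe set and by 0.28 on a second called one, while its remaining probe set gave -0.12. Synpo, Dsp, Mtss1 and Tent4a, named for this disagreement, likewise had a called rise on 1 probe set and a difference of the other sign on a dimmer one. Over all called genes, 31 of 39 such further probe sets had the sign of the brightest, and 10 of them were called.

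Growth and damage genes among the rises were few. Ccng1, a cyclin under p53 control, rose by 0.52 ± 0.09 (adjusted p = 0.023), from 0.51, 0.74 and 0.48 to 1.09, 1.10 and 1.11, while Rprm, a p53 target that halts the cell cycle, fell by 0.52 ± 0.04 (adjusted p = 0.0016). Rprm had the smallest p of all genes, with levels of 0.28, 0.25 and 0.19 in the controls and -0.35, -0.31 and -0.17 in the triadimefon rats, which are low on this array's scale. These were the called members of 16 p53 targets, whose median was 0.05. Ccn2, a matrix-associated growth factor known as a YAP and TGF-beta target, rose by 0.55 ± 0.10, from -0.02, 0.11 and 0.10 to 0.46, 0.65 and 0.72. Wee1, the kinase that holds CDK1 inactive and a gene named after its values were seen, rose by 0.43 ± 0.08 and its other probe set by 0.52, both called. Of 37 cell cycle genes none was called, with 5 higher and 1 lower at an unadjusted p of 0.05, and Mcm4, a subunit of the replicative helicase, was nearest at 0.17 ± 0.04 (adjusted p = 0.12).

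The largest fall was in Dhrs7l1, a short-chain dehydrogenase in the list of male-biased liver genes. Its level was 2.10, 2.46 and 2.18 in the controls and 1.14, 0.06 and 0.83 in the triadimefon rats, a fall of 1.57 ± 0.25 (adjusted p = 0.016). The triadimefon rats spread over more than 1 log-like unit, and rat 2 was the lowest. The other 11 male-biased genes measured gave no call, and the list's median was -0.06. Stac3, an adaptor known from skeletal muscle calcium release, fell by 1.48 ± 0.25 (adjusted p = 0.022), from 2.68, 2.50 and 2.57 to 1.64, 0.79 and 0.88, with triadimefon rat 1 above rats 2 and 3. Dhrs7l1 and Stac3 each kept their call in 1 of the 6 fits that left out a control or triadimefon array. None of 5 measured markers of skeletal muscle and fat was called, and their array means were 0.52 to 0.54 in controls and 0.46 to 0.55 in triadimefon rats.

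Insig2, the endoplasmic reticulum protein that retains the SREBP complex and so limits sterol synthesis, was at 2.49, 2.63 and 2.64 in the controls and 1.51, 1.44 and 1.43 in the triadimefon rats, a fall of 1.13 ± 0.13 (adjusted p = 0.0089). Its second probe set fell by 1.12 (adjusted p = 0.011). The fall was almost the same in each triadimefon rat. Inhba, the activin A subunit that hepatocytes respond to by slowing growth, fell by 1.0 ± 0.11 (adjusted p = 0.0071), from 1.14, 1.04 and 1.03 to 0.12, -0.06 and 0.14, and its second probe set was called as well. It was the called member among 31 genes of TGF-beta, activin and BMP signalling. Cldn1, a tight junction claudin, fell on all 3 of its probe sets, by 0.72 on the brightest (adjusted p = 0.0027), where levels were 0.98, 0.81 and 0.88 against 0.24, 0.12 and 0.14. None of the other 30 measured claudins, cadherins and connexins was called.

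Transporter falls included Slc6a6, which imports taurine, from 1.36, 1.77 and 1.40 to 0.25, 0.17 and 0.38, a fall of 1.24 ± 0.18 (adjusted p = 0.012) that its second probe set shared at -0.87. The brightest probe set of Slc6a6 kept its call in 1 of the 6 fits that left out a control or triadimefon array. Slc13a4, a sulfate transporter, fell by 0.79 ± 0.10 (adjusted p = 0.010), from 1.59, 1.49 and 1.39 to 0.79, 0.68 and 0.61. Slc45a3 fell by 0.41 and Slc17a4 by 0.42, both with groups that did not overlap. With Slc20a1 these 4 falls were the called members of 259 SLC transporters, whose median of -0.016 equalled that of all genes. Beside them, 0.557% of all genes were called higher and 0.279% lower. Gk, glycerol kinase, which lets glycerol enter glucose and lipid synthesis, fell by 0.78 ± 0.11 (adjusted p = 0.012), from 2.23, 2.42 and 2.45 to 1.58, 1.47 and 1.70, and its second probe set was at -0.38 (adjusted p = 0.069). Agpat2, an acyltransferase on the way to triglyceride and phospholipid, fell by 0.40 ± 0.07 (adjusted p = 0.025), and lost its call with median centring (adjusted p = 0.061).

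Further called falls were Olr59, annotated as an olfactory receptor, by 0.73 ± 0.09 (adjusted p = 0.010), Dnajc12, a J-domain protein that serves the aromatic amino acid hydroxylases, by 0.52 ± 0.08, and Clpx, the unfoldase of a mitochondrial protease, by 0.47 ± 0.09. Olr59 was at 1.19, 1.27 and 1.03 in the controls and 0.61, 0.28 and 0.42 in the triadimefon rats, and 9 other olfactory receptor genes measured gave no call. Pnkd fell by 0.65 on 1 probe set, with -0.03 on a second (adjusted p = 0.94). Stard13, Lims2, Crybg2, Dipk2a, Jcad, St6galnac4 and Rab38 made up the rest of the 25 largest falls, with differences from -0.54 to -0.37. The dimmer probe sets of Dipk2a, Jcad and St6galnac4 did not pass, at -0.15 to -0.01.

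Clock genes changed in both directions. Npas2, a partner of BMAL1, was at 0.67, 0.64 and 0.70 in the controls and -0.27, -0.18 and -0.19 in the triadimefon rats, a fall of 0.88 ± 0.09 (adjusted p = 0.0048). Bmal1 itself was at 0.68, 0.53 and 0.61 against -0.14, -0.08 and 0.00, a fall of 0.68 ± 0.09 (adjusted p = 0.012). Within each group the 3 rats were tightly placed, and the groups were wide apart. Dbp, a transcription factor that carries the clock's rhythm to liver enzymes, was at -0.02, 0.07 and 0.14 in the controls and 1.41, 1.43 and 0.96 in the triadimefon rats, a rise of 1.21 ± 0.16 (adjusted p = 0.011). Per3, a clock repressor family member, was dim, at 0.00, 0.02 and 0.03 against 0.36, 0.32 and 0.27, a rise of 0.30 ± 0.04 (adjusted p = 0.0092), and its dimmer probe set was at 0.04 (adjusted p = 0.70). Cipc, a protein that binds CLOCK, which lies outside the clock list and was named after its values were seen, rose by 0.50 ± 0.08 (adjusted p = 0.015).

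Of the 17 measured clock genes, 2 rose (Dbp and Per3), 2 fell (Npas2 and Bmal1) and 13 did not pass, with a median of 0.19 against -0.0155 for all genes. In 9 of them all triadimefon values lay above all control values, and in 3 below, beside 13.3% and 17.2% of all genes, so the 3 are near the background share. Genes short of the threshold, named after their values were seen, included Per2, at 0.42, 0.53 and 0.11 in the controls and 1.19, 1.42 and 1.21 in the triadimefon rats, a difference of 0.92 ± 0.21 (adjusted p = 0.080). Nr1d2, which encodes REV-ERB beta, differed by 0.56 ± 0.20 (adjusted p = 0.24) on its brightest probe set, while a second one was called at 0.50 ± 0.09 (adjusted p = 0.023). Usp2 was at 0.28 ± 0.06 (adjusted p = 0.070), Clock at -0.23 ± 0.09 (adjusted p = 0.31) and Nr1d1 at 0.11 ± 0.18 (adjusted p = 0.84), and the Nr1d1 groups overlapped. Without control replicate 1 or triadimefon replicate 2 the list kept 1 call, a fall, and without myclobutanil replicate 1 it had 6 rises and 2 falls. The hour at which each animal was killed was not known here, so an effect of sampling time was not tested.

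**Figure D3:**
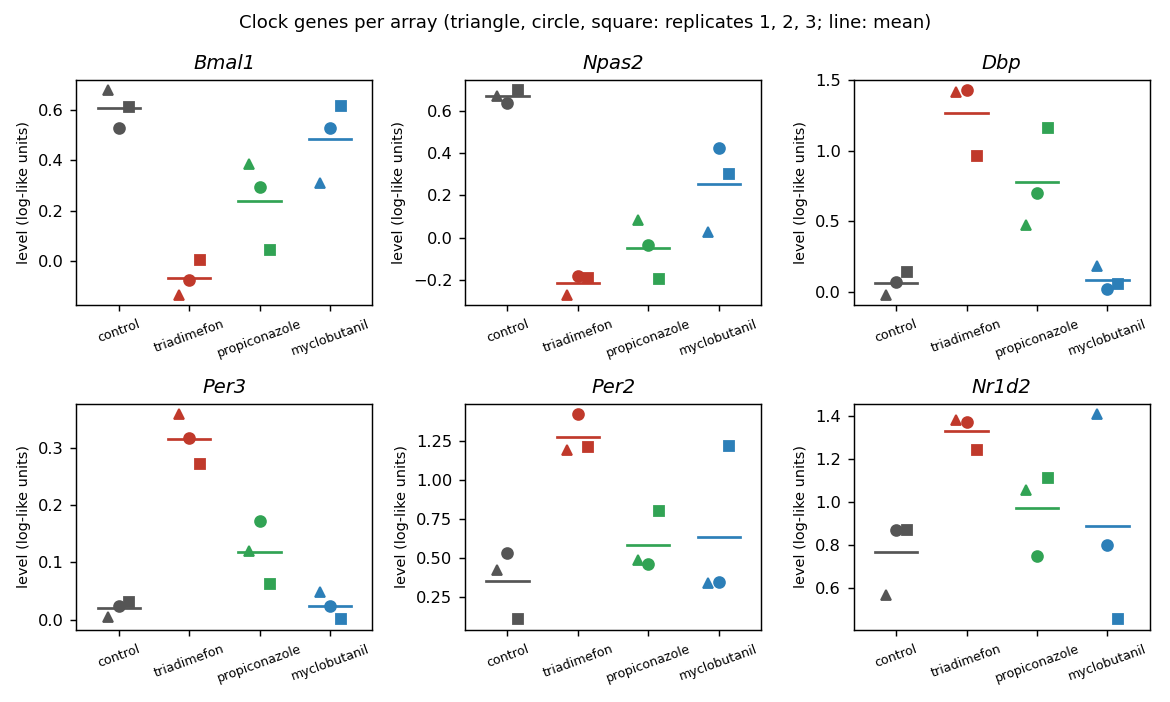
Levels of 6 clock genes on each of the 12 arrays, in log-like units, by group, with a horizontal line at the group mean and the marker shape giving the replicate number. Bmal1 and Npas2 are lowest, and Dbp, Per3, Per2 and Nr1d2 highest on average, in the triadimefon group. Propiconazole means lie between control and triadimefon in Bmal1, Npas2, Dbp and Per3.

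The promoters of Bmal1, which fell, and Dbp, which rose, are shown because these genes stand for the core and the output of the clock. The windows run from 250 bases before to 50 bases after the start of the gene in the RefSeq annotation of GRCr8, Bmal1 at chr1:176766078-176766377 and Dbp at chr1:105312006-105312305, both on the plus strand. Capitals mark matches to the REV-ERB and ROR element written as AANTN followed directly by GGTNA.

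Bmal1: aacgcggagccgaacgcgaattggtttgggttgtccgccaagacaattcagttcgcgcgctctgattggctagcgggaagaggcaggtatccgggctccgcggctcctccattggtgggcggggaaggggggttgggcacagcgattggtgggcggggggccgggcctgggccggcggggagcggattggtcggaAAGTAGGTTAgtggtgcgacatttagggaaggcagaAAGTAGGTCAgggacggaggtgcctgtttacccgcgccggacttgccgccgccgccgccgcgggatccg

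Dbp: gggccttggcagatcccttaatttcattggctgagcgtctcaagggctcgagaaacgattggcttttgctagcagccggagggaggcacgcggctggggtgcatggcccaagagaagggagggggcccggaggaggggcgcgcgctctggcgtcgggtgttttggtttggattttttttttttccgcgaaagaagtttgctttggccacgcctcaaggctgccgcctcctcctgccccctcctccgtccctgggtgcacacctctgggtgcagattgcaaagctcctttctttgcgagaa

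Letters matching the stricter form, AANTN followed directly by GGTCA, began at base 232 of the Bmal1 window, and the relaxed form, chosen after the sequence was seen, also matched at base 196. Searched on both strands, the stricter form was present in 0.8515% and the relaxed form in 2.662% of 33469 promoter windows of this length. Among the windows of 15 clock genes, Bmal1 was the one with either form. The E-box CACGTG was in 2 of the 15 (Tef and Bhlhe40) and in 6.418% of all windows, and the D-box TTANNTAA in 1 (Per2) and in 5.841%. These letter matches describe the windows and show no binding.

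Genes of ribosome assembly in the nucleolus held several of the called rises. Of 47 measured, 4 rose and none fell, the median difference was 0.11, and in 26 genes every triadimefon value lay above every control value while in none it lay below, beside 13.3% and 17.2% of all genes. At an unadjusted p of 0.05, 19 were higher and none lower, beside 7.46% and 7.35% of all genes. Gnl3, the nucleolar GTPase nucleostemin, was at 1.04, 0.95 and 1.24 in the controls and 1.58, 1.69 and 1.66 in the triadimefon rats, a rise of 0.57 ± 0.11 (adjusted p = 0.047). Gar1, a protein of the particles that modify ribosomal RNA, rose by 0.45 ± 0.09 (adjusted p = 0.038), from 0.15, 0.22 and 0.27 to 0.73, 0.74 and 0.50. Ddx21, a nucleolar RNA helicase, rose by 0.45 ± 0.09 (adjusted p = 0.048), from 0.42, 0.45 and 0.44 to 0.87, 0.93 and 0.85, and Wdr43 by 0.29 ± 0.06 (adjusted p = 0.044). A dimmer probe set of Ddx21 was at 0.12 (adjusted p = 0.68).

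These 4 calls rest on small margins. With median centring or with the replicate number as a block none of the 47 was called, without the filter on dim probe sets 1 was, and without 1 control or triadimefon array at most 1 was, whereas without myclobutanil replicate 1 there were 8. The list's median lay between 0.095 and 0.154 in all of these fits. Nop58, a core protein of box C/D particles, had the largest difference of the list, 0.58 ± 0.16, and did not pass (adjusted p = 0.14), and it is named for that after its values were seen. Mphosph10, another factor of small-subunit assembly, outside the list and also named after its values were seen, rose by 0.36 ± 0.06 (adjusted p = 0.020). Snhg4, whose introns carry small nucleolar RNAs, rose by 0.62 ± 0.08 (adjusted p = 0.010), from -0.33, -0.30 and -0.30 to 0.42, 0.29 and 0.22.

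**Figure D4:**
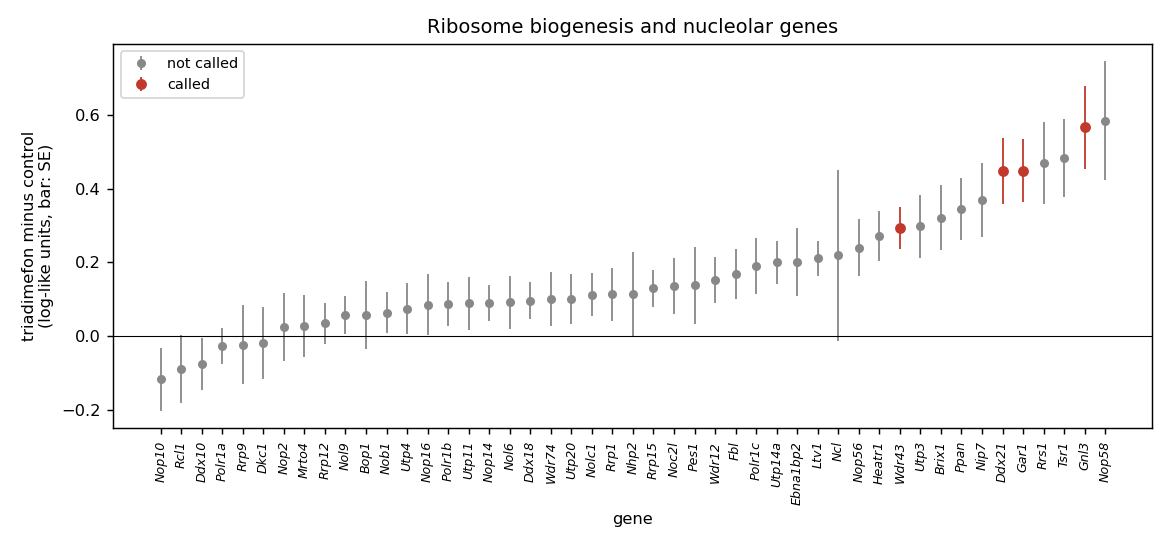
Triadimefon minus control difference, in log-like units, with its standard error (bars), for the 47 measured ribosome biogenesis and nucleolar genes in order of size. Red points are the 4 called genes, and 41 of the 47 differences are above 0.

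Ribosomal proteins themselves moved little. Of 48 cytosolic ribosomal protein genes none was called, with 2 higher and none lower at an unadjusted p of 0.05 and a median of 0.07. Differences were above 0 in 41 of the 48. In 8 every triadimefon value lay above every control value and in none below, beside 13.3% and 17.2% of all genes. Translation factors gave no call among 58 (7 higher, none lower at an unadjusted p of 0.05), and Eef1e1, a partner of the tRNA synthetase complex, was nearest at 0.41 ± 0.09 (adjusted p = 0.060). Of 73 mitochondrial ribosomal protein genes 1 rose, Mrpl47, by 0.29 ± 0.05 (adjusted p = 0.037), while the median was -0.04. Nup153, a nuclear pore protein, rose by 0.42 ± 0.08 (adjusted p = 0.043) as the called member among 41 genes of nuclear transport, and lost its call with median centring (adjusted p = 0.050). The zinc finger genes Zfp654, Zfp639 and Zfp612 rose by 0.33, 0.33 and 0.21, which made 3 of 215 zinc finger genes. Beside these counts, 0.557% of all genes were called higher.

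Polyamine genes included 2 rises. Azin1, which frees ornithine decarboxylase from its antizyme, was at 0.72, 0.58 and 0.53 in the controls and 1.31, 1.41 and 1.26 in the triadimefon rats, a rise of 0.72 ± 0.09 (adjusted p = 0.0092) that a second probe set shared at 0.65, while a dim one was at -0.15 (adjusted p = 0.53). Amd1, which makes the aminopropyl donor for spermidine and spermine, rose by 0.51 ± 0.07 (adjusted p = 0.012), from 0.68, 0.71 and 0.57 to 1.18, 1.17 and 1.14. In both genes the triadimefon rats were nearly level with each other. They were the called members of 21 genes of polyamine and folate-linked carbon metabolism, whose median was 0.12. Odc1, ornithine decarboxylase itself, differed by 0.43 ± 0.12 (adjusted p = 0.14), and Sat1, which acetylates polyamines for export, by 0.63 ± 0.15 (adjusted p = 0.085), both named after their values were seen. Without control replicate 3 or triadimefon replicate 2 neither list member kept its call.

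Some heat shock and stress genes differed widely between triadimefon rats. Hspa1a, the inducible HSP70, had the largest difference of any gene, 1.81 ± 0.61, and did not pass (adjusted p = 0.23). Its levels were 0.32, 0.23 and 1.0 in the controls and 1.06, 3.19 and 2.72 in the triadimefon rats, so rats 2 and 3 were far above all controls and rat 1 just above control 3. Dnajb1, its partner, was at 0.83, 0.94 and 1.03 against 1.40, 2.91 and 2.46 (difference 1.32 ± 0.46, adjusted p = 0.25), and Zfand2a at 0.19, 0.20 and 0.16 against 0.48, 2.41 and 1.85 (1.40 ± 0.54, adjusted p = 0.29). Atf3, a stress transcription factor, was at -0.22, 0.31 and 0.52 against 0.14, 2.56 and 1.99, and its groups overlapped. These genes were named after their values were seen. Of 58 heat shock and J-domain genes 1 was called, the fall of Dnajc12, and the median was 0.01.

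In Jun, Fos and Egr1, immediate early genes named after their values were seen, replicate 1 was below replicates 2 and 3 in both groups. Jun was at 0.27, 1.94 and 1.87 in the controls and 0.52, 2.36 and 2.07 in the triadimefon rats, Fos at -0.28, 1.34 and 1.10 against -0.07, 1.85 and 1.33, and Egr1 at 0.22, 1.90 and 1.88 against 1.21, 2.65 and 2.39. Control 1 and triadimefon rat 1 were thus low in each of the 3 genes, and the groups overlapped. None of 25 immediate early genes was called (5 higher and none lower at an unadjusted p of 0.05), and their median of 0.20 was close to 0 without control replicate 1 or triadimefon replicate 2 and 0.38 without triadimefon replicate 1. Egr2 was nearest to the threshold, at 0.52 ± 0.15 (adjusted p = 0.16). The part of sample handling in these values was not tested.

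**Figure D5:**
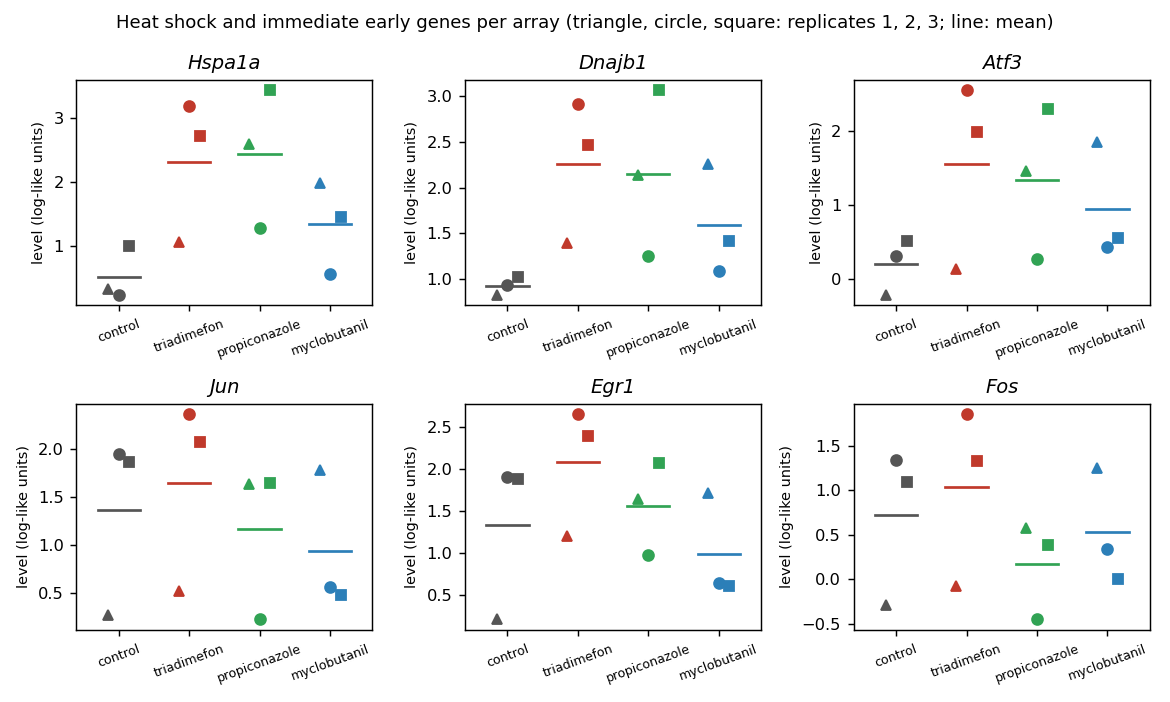
Levels of 3 heat shock or stress genes and 3 immediate early genes on each of the 12 arrays, in log-like units, by group, with a line at the group mean and the marker shape giving the replicate number. Triadimefon replicate 1 (triangle) is the lowest of its group in every panel, and control replicate 1 is far below the other controls for Jun, Egr1 and Fos.

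Targets of the oxidant sensor NRF2 gave no call among 16 (5 higher and none lower at an unadjusted p of 0.05), with a median of 0.22. Srxn1, which repairs peroxiredoxins, was at 0.74, 0.56 and 0.64 in the controls and 1.54, 2.37 and 1.73 in the triadimefon rats, a difference of 1.24 ± 0.33 (adjusted p = 0.12). Hmox1, heme oxygenase, differed by 1.0 ± 0.29 (adjusted p = 0.16), with levels of 0.86, 0.95 and 0.76 against 1.42, 2.29 and 1.86. Neither gene overlapped between groups, and triadimefon rat 2 was the highest in both. Both were named after their values were seen.

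Lipid genes gave few calls beside Insig2, Lpin2 and Agpat2. None of 19 cholesterol synthesis genes passed (5 higher and 1 lower at an unadjusted p of 0.05), although their median was 0.20. Sqle, squalene epoxidase, was nearest, with levels of 0.42, 0.62 and 0.12 in the controls and 0.93, 1.31 and 1.55 in the triadimefon rats, a difference of 0.88 ± 0.19 (adjusted p = 0.065). Cyp51, the mammalian form of the sterol demethylase that triazoles block in fungi, is named for that role and differed by 0.39 ± 0.15 (adjusted p = 0.30). Fatty acid synthesis gave none of 18 (2 higher, 1 lower at an unadjusted p of 0.05; median 0.22), with Elovl6 nearest at 0.37 ± 0.12 (adjusted p = 0.20). Fabp5, a fatty acid carrier named after its values were seen, was just short of the threshold at 1.03 ± 0.21 (adjusted p = 0.054), with 1.22, 0.96 and 0.95 in the controls and 2.01, 2.23 and 1.99 in the triadimefon rats. None of 29 genes of fatty acid oxidation was called (1 higher, 1 lower at an unadjusted p of 0.05). Nor was any of 18 genes of bile acid synthesis and transport (none higher, 3 lower). Of these 18, Nr0b2, which encodes the nuclear receptor SHP, was nearest at -0.61 ± 0.15 (adjusted p = 0.10).

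Genes of amino acid breakdown and complement had medians below 0 and no call. None of 44 amino acid catabolism genes passed (3 higher and 9 lower at an unadjusted p of 0.05), with a median of -0.13, and in 17 of them all triadimefon values lay below all control values, beside 17.2% of all genes. Cth, which makes cysteine from cystathionine, was nearest, at 2.93, 2.99 and 2.77 in the controls against 2.58, 2.54 and 2.38 (-0.40 ± 0.09, adjusted p = 0.088). Fbp1, the gluconeogenic bisphosphatase, was at 3.01, 3.00 and 2.98 against 2.72, 2.67 and 2.65 (-0.31 ± 0.07, adjusted p = 0.069). The 22 complement genes all had differences below 0, with a median of -0.13, no call, and 2 lower at an unadjusted p of 0.05. Asl, of the urea cycle, was above the controls, at 0.48 ± 0.10 (adjusted p = 0.056).

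Immune and non-hepatocyte genes gave no call. Of 30 interferon-induced genes 8 were lower and none higher at an unadjusted p of 0.05, beside 7.35% and 7.46% of all genes. Their median was -0.14, and Igtp was nearest at -0.37 ± 0.10 (adjusted p = 0.12). For 21 MHC genes the median was -0.11, with 2 lower and none higher at an unadjusted p of 0.05. The 10 marker lists for liver cell types and for other tissues held 104 measured genes, of which none was called with limma. At an unadjusted p of 0.05, 4 were higher and 9 lower, beside 7.46% and 7.35% of all genes. Kupffer cell and macrophage markers had array means of 1.12 to 1.27 in the controls and 1.09 to 1.23 in the triadimefon rats, and a median difference of -0.09. Of 13 lymphocyte markers 12 had differences below 0 and 5 lay wholly below the controls, as did 17.2% of all genes. Array means of these markers were 0.079 to 0.106 in the controls and 0.037 to 0.058 in the triadimefon rats. Their part in the interferon and MHC values was not tested. Stellate cell markers had means of 0.60 to 0.69 against 0.61 to 0.90, and endothelial markers of 0.68 to 0.72 against 0.62 to 0.66. Of all 82 lists, 23 had a called member.

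Among lists without a call, a few genes came near the threshold. Lox, which crosslinks collagen, was at 0.95, 1.26 and 0.62 in the controls and -0.07, -0.09 and 0.52 in the triadimefon rats, a difference of -0.82 ± 0.17 (adjusted p = 0.055), and triadimefon rat 3 came close to control 3. It was the nearest of 73 collagen and matrix genes (2 higher, 3 lower at an unadjusted p of 0.05). Abcc6 was the nearest of 34 ABC transporters (4 higher, 5 lower), at 1.95, 1.88 and 1.89 against 1.55, 1.51 and 1.53 (-0.38 ± 0.08, adjusted p = 0.061). Srsf4, a splicing regulator, stood at 0.38 ± 0.08 (adjusted p = 0.065) among 56 splicing factors, 11 of which were higher and 2 lower at an unadjusted p of 0.05. Tubb2a, a beta-tubulin, stood at -0.63 ± 0.14 (adjusted p = 0.081), with 2.21, 2.18 and 2.38 in the controls and 1.43, 1.69 and 1.75 in the triadimefon rats. Of 76 respiratory chain and ATP synthase genes none was higher and 5 were lower at an unadjusted p of 0.05, with a median of -0.06. Of 46 proteasome subunits 2 were higher and 1 lower. The shares of all genes to set beside the counts in this paragraph are 7.46% higher and 7.35% lower.

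Of the called probe sets, 36 name no single gene, 19 higher and 17 lower. The largest rise among these was in 1368718_at, from 0.85, 0.85 and -0.24 in the controls to 2.14, 2.24 and 2.41 in the triadimefon rats (1.78 ± 0.26, adjusted p = 0.012). Probe set 1371076_at, annotated to several genes, rose by 1.5 ± 0.17 (adjusted p = 0.0071), from 1.52, 1.14 and 1.44 to 2.40, 2.97 and 3.23. The largest falls were in 1387902_a_at, by 0.90 ± 0.12, and 1372452_at, by 0.82 ± 0.13.

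Set directly against the other compounds, triadimefon differed from myclobutanil in 6 of 21729 probe sets (0.0276%) and from propiconazole in none with limma (0.0%). At an unadjusted p of 0.05, 1653 (7.61%) and 803 (3.7%) passed. The doses differ, 175 against 300 mg/kg/day, so compound and dose cannot be told apart. Dbp was 1.18 ± 0.16 above myclobutanil (adjusted p = 0.047), whose rats were at 0.18, 0.02 and 0.06 and thus near the controls. Per3 was 0.29 ± 0.04 above it (adjusted p = 0.047), with myclobutanil rats at 0.05, 0.02 and 0.00. Nr1d2, on its second probe set, was 0.64 ± 0.09 above it (adjusted p = 0.047), with 0.41, 0.48 and 0.58 in the controls, 0.91, 1.06 and 1.0 with triadimefon and 0.31, 0.54 and 0.22 with myclobutanil. All 3 are clock genes. Rprm was 0.41 ± 0.04 lower than with myclobutanil (difference -0.41, adjusted p = 0.015).

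In the other 2 calls the myclobutanil rats stood far from the controls. Fcna, a ficolin made by Kupffer cells, was at 0.62, 0.81 and 0.79 with triadimefon and 0.30, 0.03 and -0.02 with myclobutanil, beside 1.03, 0.94 and 1.0 in the controls, a difference of 0.64 ± 0.08 (adjusted p = 0.047). Saa3, an acute phase protein, was -0.40 ± 0.05 from myclobutanil (adjusted p = 0.047), with triadimefon rats at -0.14, -0.14 and -0.12 and controls at -0.09, -0.13 and -0.08. Of these 6 calls, none was left without triadimefon replicate 1 or 2, and 1 without replicate 3. Without myclobutanil replicates 1, 2 or 3 the comparison had 34, 23 and 3 calls.

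For the leading genes the 3 comparisons, which share the same controls, read as follows. Coq10b stood at 1.47 with triadimefon, 0.86 with myclobutanil and 1.28 with propiconazole. Por stood at 1.24, 0.64 and 1.04 in the same order, and Gsta3 at 1.38, 1.73 and 1.30. Dbp stood at 1.21, 0.02 and 0.72, Bmal1 at -0.68, -0.12 and -0.37, and Npas2 at -0.88, -0.42 and -0.72. Lpin2 stood at 0.85, 0.19 and 0.23, Insig2 at -1.13, -0.35 and -0.88, and Stac3 at -1.48, -2.39 and -1.97. Dhrs7l1 stood at -1.57, -1.45 and -0.38. No called gene differed from both other compounds in the direct tests. Hsd17b2, which inactivates estradiol and testosterone and was named after its values were seen, stood at 1.19 ± 0.28 (adjusted p = 0.085), -0.52 and 0.90.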

How the data were processed

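Liver RNA of 12 rats was measured on 12 expression arrays, 1 liver each, and all 12 entered the fit. The deposited values are a score per probe set that behaves like a logarithm. Its base and centring, and the software and normalization the authors used, could not be learned from the sources used here. The plan assumed a log scale of known base, so the scores were used unconverted and no folds are given. Of 31099 probe sets, 57 array controls were set aside. Array medians ran from 0.0182 to 0.157, and the arrays were quantile normalized. The 9313 probe sets with the lowest mean (30%) were left out as dim.

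Each of 21729 probe sets was fitted with limma 3.58.1 (R 4.3.3) on the means of 4 groups, with 8 residual degrees of freedom, an intensity trend and Benjamini-Hochberg adjustment over all of them. All tests were two-sided, and an adjusted p under 0.05 was called. The number of arrays limits the precision. On simulated data for triadimefon against control, with 21729 probe sets of which 200 were changed, the fit recovered 56% of shifts of 0.3, 90% of 0.6 and 100% of 1, and 13 of 186 calls were false. The simulated noise was independent between probe sets, equal in spread across groups and without an outlying array. These shares therefore may not carry over to the measured data, where some differences above 1 did not pass.

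By the platform's possibly dated annotation, 20826 probe sets name 1 gene, 436 name several and 9780 none. Symbols were updated through RefSeq GRCr8 for 20758. A gene is represented by its brightest tested probe set. The text names the 25 largest called rises and falls whose groups did not overlap, as many as 4 called members per gene list (or else its member with the smallest p), and the 2 largest called rises and falls among probe sets without a single gene. Genes outside this rule are marked as named after their values were seen or for a stated reason. The rule also named genes most like the leading ones across arrays, which are not reported. Members and lists were chosen with earlier results of these data known. Promoter sequences are from RefSeq (GRCr8). Alternatives were median centring, no normalization, other filters, the 6 arrays alone, no trend, array weights, the replicate number as a block and leaving out single arrays. Replicate numbers were checked for pairing. Same-numbered control and triadimefon arrays had deviations from their group means that correlated at -0.347, -0.398 and -0.0247. The labels do not say that the numbers pair animals, and so few arrays per group cannot decide it. Figures were drawn with matplotlib 3.10.9 in Python 3.11.15.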

Additional observations from a re-analysis of the deposited data

Results flagged for a closer look

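In all, 6 probe sets differed between triadimefon and myclobutanil in a direct limma test, at doses that differ, and each is given here because 2 treatments set against the same controls gave different values. Triadimefon minus myclobutanil was 1.18 for Dbp, 0.29 for Per3 and 0.64 for Nr1d2 (its dimmer probe set), all clock genes. Fcna, a Kupffer cell ficolin, was at 0.64, Rprm at -0.41 and Saa3 at -0.40. The cause of these differences was not tested.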

How the results depend on the processing

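For triadimefon against control, 167 probe sets were called. The count was 166 with median centring, 195 with deposited values or with the lowest 50% left out, 155 with no filter and 210 without the intensity trend. It was 621 with the 6 arrays alone, 1028 with array weights and 615 without myclobutanil replicate 1, and between 6 and 60 when 1 control or triadimefon array was left out. With the replicate number as a block 87 were called, and whether the numbers pair animals is not known. Of the 99 called genes, 74 kept their call with median centring and 50 with the block, 6 without triadimefon replicate 2, 9 without control replicate 1 and 11 without control replicate 3. None of the 118 genes named by the rule changed sign under any of these settings in which it was tested. Genes named after their values were seen, Jun and Fos among them, were not part of this count.

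For triadimefon against myclobutanil, 6 were called. The count was 1 with no filter, 0 with the 6 arrays alone, without the trend or with the replicate block, and 340 with array weights. Leaving out 1 array gave 0 to 34. Against propiconazole no probe set was called under any setting except array weights, with 45. The causes of these changes were not tested. The limits are the 3 animals per group, the unknown log base, and probe sets that may read paralogs.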
